A study of Caenorhabditis elegans with 25 samples.

Results

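RNA from the germlines of him-8 males and from the oogenic germlines of fem-2 hermaphrodites of Caenorhabditis elegans was compared, a male against female comparison made entirely in mutants that shared no library with the wild-type (N2) comparison of the same study. It used 7 of the 25 libraries of the study, 4 from him-8 male germlines and 3 from fem-2 oogenic germlines, taken by their strain and sex labels. The him-8 males were XO males of strain CB1489, which carries him-8(e1489), came from him-8 hermaphrodite mothers and were kept at 20°C. The fem-2 animals were XX hermaphrodites of strain DH245, which carries the temperature-sensitive allele fem-2(b245ts), had fem-2/fem-2 parents, were maintained at 15°C and were moved to 20°C as L4 larvae for 24 h. In both, distal gonad arms were cut at the bend, in late pachytene, from day 1 adults, and total RNA depleted of ribosomal RNA was sequenced as single 50-base reads. The 2 N2 male and 3 N2 oogenic germline libraries were used only to ask where the mutants differed from wild type. The deposited library names end in tags whose meaning is not given in the sources used here. Sex, strain and rearing temperature all changed together between the him-8 and fem-2 libraries, and no name tag was shared between them, so their parts in any difference cannot be told apart.

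C. elegans males have a single X chromosome and make only sperm, whereas hermaphrodites have a pair of X chromosomes and make sperm as larvae and oocytes as adults. HIM-8 is a zinc finger protein that binds the pairing center of the X chromosome in meiosis, and its loss lets the X chromosomes missegregate, so that mutant mothers produce many males. FEM-2 is a protein phosphatase of the sex determination pathway that is needed for male development and for spermatogenesis, and animals without it make oocytes in place of sperm. The comparison therefore sets germ cells on the way to sperm against germ cells on the way to oocytes. Whether the fem-2 animals lacked the larval sperm that a wild-type hermaphrodite makes was not tested here. Germ cells also keep the X chromosome largely silent, more so in males than in adult hermaphrodites.

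The deposited gene counts summed to between 1849544 and 5030360 per him-8 male library and between 5550534 and 16369589 per fem-2 oogenic library. Levels are given as counts per 1000000 gene counts of a library (CPM), and fold changes as log2 of him-8 male over fem-2 oogenic from edgeR's quasi-likelihood test, whose TMM scaling places a gene of equal CPM in both groups at 0.49. The N2 comparison had its own TMM scaling, to which the 0.49 does not apply. A call is a Benjamini-Hochberg adjusted p under 0.05 over the 9244 genes tested. The him-8 male library of replicate 2 stood apart. Its log2 levels correlated with those of the other him-8 male libraries at 0.863 to 0.881 across genes, against 0.964 to 0.986 among the other 3, and 10 muscle markers summed to 2882 CPM in it, against 125 to 164 CPM in the others. It is called library 2 below, and results that rest on it are given with and without it. The paper describes the replicates as biological. The labels do not say whether they were separate cultures, so p-values measure the spread among these libraries only.

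The transcripts of the mutated genes were present in both groups. The him-8 gene (T07G12.12, chromosome IV) had 15.0, 15.7, 22.1 and 22 CPM in him-8 males, against 59.9, 58.9 and 62.9 CPM in fem-2 oogenic germlines (log2 fold change -1.20 ± 0.17 SE, edgeR adjusted p = 0.000276), and it was lower in N2 male than in N2 oogenic germlines as well (-1.68). The fem-2 gene (T19C3.8, chromosome III) had 68.9, 35.1, 68.4 and 70.6 CPM in him-8 males and 175, 163 and 169 CPM in fem-2 oogenic germlines (-0.99 ± 0.19), with -0.72 in N2. Neither level distinguishes the mutant from the wild-type transcript, so they do not test the genotype labels. Germ cell products matched the sex labels. All 31 major sperm protein (MSP) genes together reached 35468, 65364, 43346 and 38361 CPM in him-8 males, against 1.0, 0.4 and 7.3 CPM in fem-2 oogenic germlines. The 15 eggshell and egg activation genes together reached 2192, 1461, 2027 and 2088 CPM in him-8 males, against 20930, 20604 and 20201 CPM in fem-2 oogenic germlines. The fem-2 libraries thus held almost no MSP transcripts, whereas the him-8 male libraries all held eggshell transcripts. Neither was particular to the mutants. In N2, MSP genes together had 0, 0 and 7.1 CPM in oogenic germlines, and eggshell genes 1253 and 1903 CPM in males.

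Of the 9244 genes, 3125 (33.8%) were higher and 2811 (30.4%) lower in him-8 males than in fem-2 oogenic germlines, and the median log2 fold change of all genes was 0.03. The CPM of the libraries did not overlap for 5380 called genes (58.2% of those tested). The size of the differences was unequal. A log2 fold change of at least 5 was reached by 1836 genes higher in him-8 males (19.9%) but by 248 genes lower in them (2.68%). With the 488 genes at 0 in every fem-2 library and the 45 at 0 in every him-8 library set at their fold against a floor of 3 counts per library, these numbers were 1705 and 205. Without library 2, 3631 genes were higher (39.7%) and 2856 lower (31.2%), and 3024 of the 3125 and 2612 of the 2811 calls were shared. The split between directions depends on the scaling. Scaled to total counts alone, 2561 genes (27.7%) were higher and 4272 (46.2%) lower, the median of all genes shifting by -0.48. Because the arms are bulk tissue, fewer cells of a type and less RNA per cell cannot be told apart for any gene below.

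Many genes higher in him-8 males were near silent in fem-2 oogenic germlines, whereas few genes lower in him-8 males were near silent there. RPKM, which divides CPM by the gene's length in kilobases, allows levels of genes to be compared. Of 2450 higher genes over 15 RPKM in him-8 males, 1362 (55.6%) were under 1 RPKM in fem-2 oogenic germlines, with medians of 79.3 RPKM in him-8 males and 0.389 RPKM in fem-2 oogenic germlines. Of 1906 lower genes over 15 RPKM in fem-2 oogenic germlines, 87 (4.56%) were under 1 RPKM in him-8 males and 1142 (59.9%, Wilson 95% interval 57.7 to 62.1%) were still over 15 RPKM, with medians of 18 RPKM in him-8 males and 56.6 RPKM in fem-2 oogenic germlines. Without library 2 these shares under 1 RPKM were 45.8% of 2937 higher genes and 5.73% of 1799 lower genes. These are descriptions of called genes, since the calls and the levels come from the same libraries.

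**Figure D1:**
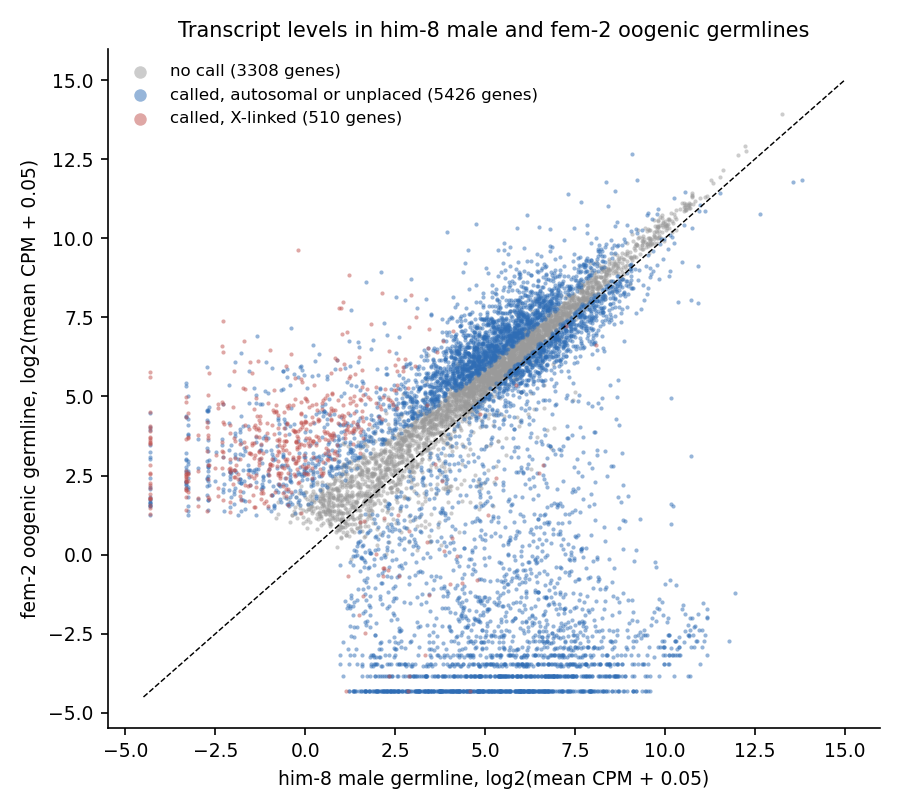
Mean level of each of the 9244 tested genes, as log2(CPM + 0.05), in him-8 male germlines (x axis) and in fem-2 oogenic germlines (y axis), with called X-linked genes in red, other called genes in blue, uncalled genes in grey and a dashed line at equal CPM. Many of the 3125 genes higher in him-8 males lie along the bottom edge, near 0 in fem-2 oogenic germlines, while most called X-linked genes lie in the left part, low in him-8 males.

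The most male-restricted transcripts had no count in fem-2 oogenic germlines. C15C6.2 (chromosome I) had 677, 794, 851 and 772 CPM in him-8 males and 0 in all 3 fem-2 libraries, at least 2206-fold higher when the fem-2 libraries are set at a floor of 3 counts each (edgeR adjusted p = 9.02e-08). The acyl-CoA dehydrogenase family gene acdh-8 (K05F1.3, chromosome II) had 643, 832, 730 and 779 CPM in him-8 males and likewise 0 in fem-2 oogenic germlines, at least 2127-fold higher. H12D21.1, F58E6.5, C04F12.7 and cyc-2.2, a cytochrome c, were at least 2027-fold, 1985-fold, 1678-fold and 1581-fold higher on the same floor. In H12D21.1 library 2 was far above the rest, at 1413 CPM against 402 to 539 CPM in the other him-8 males.

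The highest male transcripts outside the gene families below were mostly nsph and ssq genes. The gene nsph-3.2 (C04G2.9) had 3209, 4065, 4197 and 4217 CPM in him-8 males, against 0.219, 0 and 0.916 CPM in fem-2 oogenic germlines (13.32 ± 0.58, edgeR adjusted p = 1.46e-07). The sperm-specific gene ssq-2 (T28H11.5) averaged 3493 ± 412 CPM in him-8 males and 0.102 ± 0.176 CPM in fem-2 oogenic germlines (SD, n = 4 and 3). Next came ssq-4, Y57G11A.2 and nsph-3.1, at means of 2315, 2311 and 2294 CPM in him-8 males. Their counts are in part uncertain for ssq-4, which shares bases with an opposite-strand gene, and for Y57G11A.2, which shares bases with a gene of its own strand.

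Sperm gene groups rose almost without exception. All 8 listed genes for sperm chromatin and the sperm phosphatases were higher (33.8% of all genes were), with a median log2 fold change of 13.56, against 0.03 over all genes. Among them spch-1, which encodes a basic protein of sperm chromatin, had 1428, 1965, 2020 and 1720 CPM in him-8 males and 0.219, 0 and 0.244 CPM in fem-2 oogenic germlines. The phosphatase gene gsp-3, needed for sperm meiosis and motility, averaged 1277 ± 171 CPM in him-8 males and 0.102 ± 0.176 CPM in fem-2 oogenic germlines. All 31 MSP genes (median 13.84), 15 of 15 tested small sperm protein genes (13.30), 9 of 9 tested nspd genes (13.76) and 7 of 8 tested tau tubulin kinase genes (12.89) were higher. The exception was ttbk-7 (-3.06). With genes at 0 in every fem-2 library at that same floor, the medians were 13.46 for sperm chromatin and phosphatases, 13.77 for MSP, 12.94 for small sperm protein, 13.22 for nspd and 11.73 for tau tubulin kinase genes. MSP, nspd and small sperm protein genes hold near-identical copies, so the count of any single member is uncertain.

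Of the 27 sperm development genes tested, 26 were higher and none was lower (33.8% and 30.4% of all genes were), with a median of 8.71 (8.68 at the floor). The sperm surface protein gene spe-9, required for fertilization, had 63.7, 48.7, 67 and 78.9 CPM in him-8 males and 0.219, 0.360 and 0.122 CPM in fem-2 oogenic germlines (8.68 ± 0.30), although an opposite-strand gene overlaps it. The paternal factor gene spe-11 had 398, 379, 205 and 189 CPM in him-8 males and 0 in fem-2 oogenic germlines, at least 835-fold higher. A member with a sizeable level in both groups was spe-44, which encodes a regulator of sperm genes, at 207, 166, 168 and 224 CPM in him-8 males against 26.7, 28.5 and 32 CPM in fem-2 oogenic germlines (3.20 ± 0.15). The uncalled member, spe-39, had 75.1 to 97.3 CPM in him-8 males and 127 to 142 CPM in fem-2 oogenic germlines (-0.19 ± 0.15, edgeR adjusted p = 0.294), and was lower with total counts. It acts in vesicle trafficking in other tissues too.

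Levels of some sperm genes differed with the name tags of the him-8 males. Libraries 1 and 2 carried one tag and libraries 3 and 4 carried another. The nspd genes together had 7867, 11344, 2645 and 2752 CPM in him-8 males, against 0.3, 0.2 and 0.9 CPM in fem-2 oogenic germlines, and the values of spe-11 above fall into the same pairs. Of the 3125 higher genes, 61 were over 2 times as high in both libraries of the first tag as in both of the other, and 17 were so the other way. In 59 of the 61, N2 male 1, which carries the first tag, was over 2 times N2 male 2. The share of all genes that differed so between the N2 males was not computed, so the 59 have no background beside them. The N2 males also differed in summed MSP genes (58659 and 40119 CPM) and muscle markers (1469 and 425 CPM). The 61 and the 17 genes were picked after their values were seen.

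Genes whose products build the eggshell and activate the egg fell together. All 15 were lower in him-8 males (30.4% of all genes were), with a median of -3.01. The chitin-binding vitelline layer gene cbd-1 (H02I12.1, chromosome IV) had 677, 325, 577 and 604 CPM in him-8 males, against 6687, 6535 and 6226 CPM in fem-2 oogenic germlines (-3.09 ± 0.22, edgeR adjusted p = 3.6e-06). The chondroitin proteoglycan genes cpg-1 and cpg-2 had 332 ± 54.6 and 159 ± 34.5 CPM in him-8 males, against 3535 ± 190 and 2690 ± 100 CPM in fem-2 oogenic germlines (-2.93 ± 0.14 and -3.59 ± 0.17). The proteoglycan gene cpg-3 was nearly off, with 3.21 to 5.51 CPM in him-8 males and 431 to 543 CPM in fem-2 oogenic germlines (-6.37 ± 0.21). The egg surface receptor gene egg-1 (-3.85) and perm-4, which acts in the permeability barrier of the eggshell (-5.30), also fell. The smallest difference was that of mbk-2, a kinase of the oocyte-to-embryo transition, at 297 ± 36.4 CPM in him-8 males and 529 ± 25.5 CPM in fem-2 oogenic germlines (-0.35 ± 0.12). Its call was lost without library 2 (edgeR adjusted p = 0.14), which left 14 of the 15 lower.

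Of 25 maternal regulators, genes for proteins that control mRNAs of oocytes and embryos or embryo polarity, 21 were lower and none was higher (median -2.13). Over all genes 33.8% were higher and 30.4% lower. The Pumilio family gene puf-5 had 34.0, 21.1, 26.8 and 24.4 CPM in him-8 males, against 1407, 1406 and 1433 CPM in fem-2 oogenic germlines (-5.24 ± 0.17, edgeR adjusted p = 4.08e-08). The zinc finger gene pos-1 (-4.62), nos-2 (-4.38), oma-2 (-4.28) and lin-41 (-3.54), which holds oocytes back from maturing, were lower too. The redundant pair oma-1 and oma-2, which together drive oocyte maturation, was unequal. oma-1 kept 147, 127, 118 and 136 CPM in him-8 males against 355, 375 and 424 CPM in fem-2 oogenic germlines (-1.05 ± 0.13), whereas oma-2 had 23.3, 16.8, 22.9 and 24.6 CPM in him-8 males against 579, 577 and 639 CPM in fem-2 oogenic germlines. The 4 polarity genes par-1, par-2, par-4 and par-5 were not called. For par-5, a 14-3-3 protein gene, him-8 males had 834 ± 21.5 CPM and fem-2 oogenic germlines 1087 ± 6.03 CPM, a fitted value of 0.11 ± 0.11. On CPM every fem-2 library exceeded every him-8 library in all 25 genes (49.8% of all genes were so), and scaled to total counts 24 were lower. Without library 2, par-1 (0.37) and par-5 (0.22) were called higher, as they were by DESeq2, which called 39.3% of all genes higher, while 21 were lower in both fits.

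The abundant oogenic transcripts of cey-2 and cgh-1 were lower in him-8 males but stayed well above 0 there. The Y-box gene cey-2 (F46F11.2, chromosome I) averaged 388 ± 61.4 CPM in him-8 males and 2855 ± 83.6 CPM in fem-2 oogenic germlines (-2.39 ± 0.16). The maternal list's highest member, the RNA helicase gene cgh-1 (C07H6.5, chromosome III), averaged 602 ± 104.5 CPM in him-8 males and 3641 ± 137 CPM in fem-2 oogenic germlines (-2.11 ± 0.16). The X chromosome was unevenly represented among genes at or near 0. Among the 385 lower genes with at most 3 counts in every him-8 library, 193 (50.1%) were X-linked, whereas among the 1302 higher genes with at most 3 counts in every fem-2 library 8 (0.614%) were. For background, X-linked genes were 680 of the 9244 tested, 471 of the 2811 lower and 39 of the 3125 higher. The cut was unequal, since 3 counts averaged 0.945 CPM in him-8 male and 0.351 CPM in fem-2 oogenic libraries. The 385 lower genes reached at most 168 CPM and a median of 7.11 CPM in fem-2 oogenic germlines. The 1302 higher genes reached 2297 CPM and a median of 46.2 CPM in him-8 males.

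**Figure D2:**
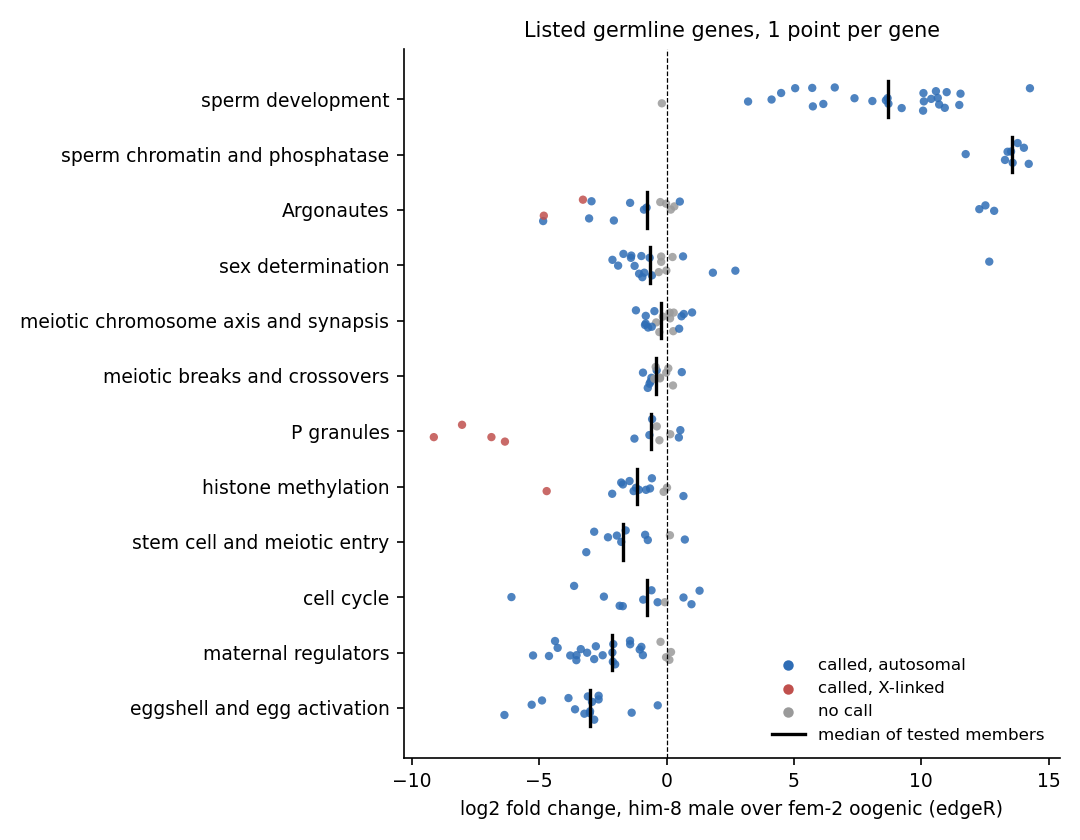
Log2 fold change, him-8 male over fem-2 oogenic germlines, of each tested member of 12 gene lists, with called X-linked members in red, other called members in blue, uncalled members in grey and the median of each list as a vertical bar. The sperm lists have medians of 8.71 and 13.56, the maternal and eggshell lists -2.13 and -3.01, and the 4 X-linked P granule genes are the meg genes.

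The X chromosome stood apart from the autosomes. Of 680 X-linked genes tested, 39 (5.74%) were higher and 471 (69.3%) lower in him-8 males, with a median of -3.04. Of 8422 autosomal genes, 3049 (36.2%) were higher and 2300 (27.3%) lower, with a median of 0.10. The 5 autosomes were alike in the lower share, from 25.21 to 28.5%. Without library 2 the X-linked calls numbered 34 higher (5.14%) and 550 lower (83.2%) of 661, with a median of -3.64. In N2, 84 (14%) were higher and 365 (60.8%) lower of 600, with a median of -2.12. The X-linked share of all gene counts was 0.250, 1.10, 0.288 and 0.267% in him-8 males, against 1.58, 1.45 and 1.76% in fem-2 oogenic germlines. All him-8 libraries lay below all fem-2 libraries, a mean difference of -1.12 percentage points (exact permutation test, two-sided, p = 0.0571), and no smaller p is possible with 4 libraries against 3. Without library 2 the him-8 male mean was 0.268 ± 0.0191% and the difference -1.33 (exact p = 0.1, again the smallest possible).

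Among the called lower genes, X-linked ones were at lower levels than autosomal ones, in fem-2 oogenic germlines as well as in him-8 males. Of 63 X-linked lower genes over 15 RPKM in fem-2 oogenic germlines, 39 (61.9%) were under 1 RPKM in him-8 males and 0 were over 15 RPKM, with medians of 0.394 RPKM in him-8 males and 25.6 RPKM in fem-2 oogenic germlines. Of 1821 autosomal lower genes at that level, 48 (2.64%) were under 1 RPKM in him-8 males and 1135 (62.3%) were over 15 RPKM, with medians of 18.8 RPKM in him-8 males and 58.2 RPKM in fem-2 oogenic germlines. Without library 2, 49 of 74 X-linked genes (66.2%) were under 1 RPKM in him-8 males.

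**Figure D3:**
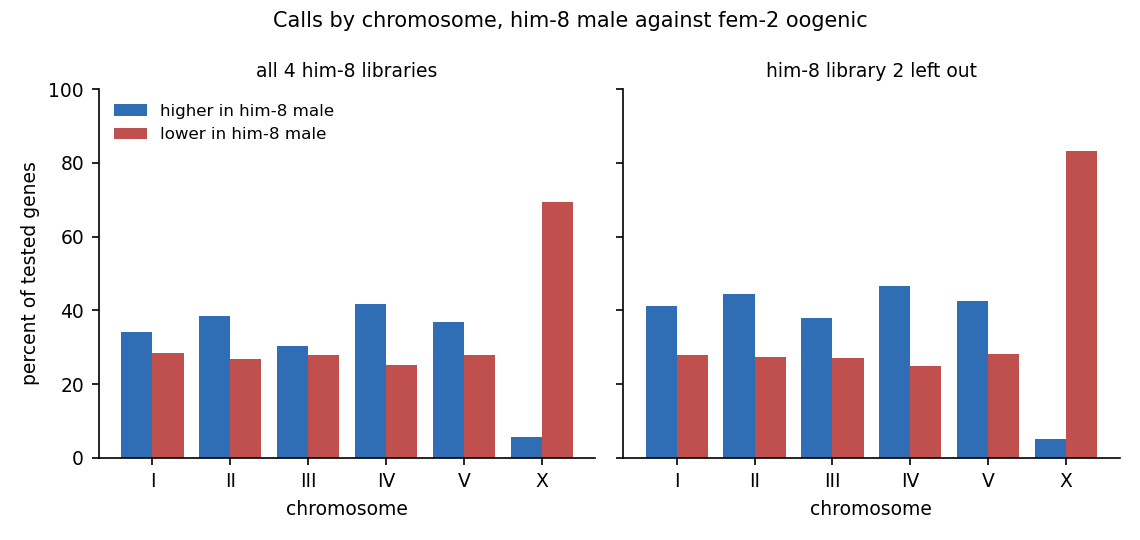
Percentage of tested genes called higher (blue) and lower (red) in him-8 males than in fem-2 oogenic germlines on each chromosome, with all 4 him-8 libraries (left) and without library 2 (right). On the X chromosome 5.74% were higher and 69.3% lower, or 5.14% and 83.2% without library 2, while on every autosome more genes were higher than lower with TMM scaling.

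Individual X-linked genes reached 0 in males. K04C1.5 had 0 in all 4 him-8 males and 53.2, 53.3 and 57.4 CPM in fem-2 oogenic germlines, at least 57.8-fold lower on the floor of 3 counts per library (edgeR adjusted p = 8.58e-06). R09A8.1 and rgs-9, a regulator of G protein signaling, were likewise at 0 in him-8 males and averaged 22.8 ± 1.89 and 16.8 ± 1.09 CPM in fem-2 oogenic germlines. The ABC transporter gene mrp-4 had 0.306, 0.541, 1.39 and 1.07 CPM in him-8 males, against 779, 811 and 764 CPM in fem-2 oogenic germlines (-9.23 ± 0.25, edgeR adjusted p = 2.73e-08), although an opposite-strand gene overlaps it. The autosomal genes among the largest decreases were cdc-25.3, at 0 in him-8 males and 20.8, 21.1 and 24.9 CPM in fem-2 oogenic germlines, and C17E7.4, with 1 count over all him-8 males and 35.9 to 46.7 CPM in fem-2 oogenic germlines, a ratio of 627 with a 95% counting interval of 113 to 24760.

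The X-linked genes higher in males were few and in part rested on library 2. F18E9.7 had 0.919, 51.4, 16.9 and 26.5 CPM in him-8 males and 0 in fem-2 oogenic germlines, at least 68.2-fold higher, and did not pass the filter on low counts when library 2, 3 or 4 was left out. The asparagine synthetase gene asns-2 had 2.76, 51.9, 5.76 and 3.85 CPM in him-8 males and 0.328, 0.360 and 0.733 CPM in fem-2 oogenic germlines (5.43 ± 1.34, and 3.53 without library 2). F20B6.6 was even across libraries, at 24.5, 34.6, 23.9 and 26.1 CPM in him-8 males against 0.656, 0.540 and 0.367 CPM in fem-2 oogenic germlines (6.20 ± 0.36, edgeR adjusted p = 8.86e-07). Of the 39 X-linked higher genes, 12 lost their call without library 2 and 27 did not.

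Genes of the germline sex determination pathway moved in both directions. The sperm-fate genes fog-1 and fog-3, terminal regulators that commit germ cells to sperm, were higher. fog-3 (C03C11.2) had 110, 90.3, 92.8 and 98.2 CPM in him-8 males and 0 in fem-2 oogenic germlines, at least 279-fold higher, and fog-1 had 207, 94.1, 162 and 157 CPM in him-8 males against 35.9, 27.4 and 36 CPM in fem-2 oogenic germlines (2.70 ± 0.25, edgeR adjusted p = 1.86e-05). cpb-1, a translational regulator needed for spermatogenesis, rose by 1.82 ± 0.21, while its relative cpb-3 fell by 1.40 and had 96.4 ± 24.5 CPM in him-8 males against 356 ± 20.5 CPM in fem-2 oogenic germlines.

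The lower genes included tra-2, the receptor that promotes female development (-1.90), tra-1, the terminal regulator of somatic sex (-1.08), rnp-8 (-1.69), daz-1 (-0.88) and gld-1, a translational repressor needed for oogenesis (-2.13). gld-1 had 283, 152, 251 and 220 CPM in him-8 males, against 1396, 1428 and 1327 CPM in fem-2 oogenic germlines. The male-promoting genes fem-3 (-1.26 ± 0.23) and fem-2 (-0.99) were lower as well, as was fog-2 (-0.95), needed for hermaphrodite sperm. fem-1 was called higher (0.65), but its CPM overlapped, at 123 ± 25.14 in him-8 males and 110 ± 6.04 in fem-2 oogenic germlines, and scaled to total counts it was not called (0.17). In all, 4 of the 21 tested genes were higher and 12 lower (33.8% and 30.4% of all genes were), with a median of -0.66. her-1, the male-promoting ligand, was too low to be tested.

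Argonautes, the small RNA binding proteins, were divided. The sperm Argonaute genes alg-3 and alg-4, which act with small RNAs of spermatogenesis, had 786, 911, 1074 and 1149 CPM and 862, 992, 1303 and 1310 CPM in him-8 males. In fem-2 oogenic germlines they had 0.109, 0.180 and 0.367 CPM and 0, 0 and 0.367 CPM, giving log2 fold changes of 12.28 ± 0.33 and 12.86 ± 0.53. wago-10 followed, at 494, 454, 445 and 580 CPM in him-8 males against 0.109, 0 and 0.122 CPM in fem-2 oogenic germlines, a ratio of 5171 with a counting interval of 1769 to 25076.

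In the other direction, ergo-1, which binds small RNAs of oogenesis and embryos, had 47.8, 40.6, 63.0 and 56.5 CPM in him-8 males, against 563, 550 and 576 CPM in fem-2 oogenic germlines (-2.95 ± 0.14, edgeR adjusted p = 2e-07). The microRNA Argonaute genes alg-2 (-4.85), alg-1 (-3.28) and alg-5 (-2.07), the nuclear Argonaute nrde-3 (-4.82) and vsra-1 (-3.04) were lower, of which alg-1 and nrde-3 are X-linked. hrde-1, the nuclear Argonaute of germline inheritance, had 734 ± 111 CPM in him-8 males and 1771 ± 37.0 CPM in fem-2 oogenic germlines (-0.79 ± 0.13). csr-1 and prg-1 were not called with library 2 kept, at 802 ± 93.8 and 561 ± 92.8 CPM in him-8 males against 912 ± 70.04 and 700 ± 59.7 CPM in fem-2 oogenic germlines. Without library 2 only 1 of the 17 Argonautes was uncalled, so csr-1, prg-1 or both were called there. Over the 17 Argonautes 4 were higher and 9 lower (7 and 9 without library 2), beside 33.8% higher and 30.4% lower over all genes.

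P granules are the RNA-rich bodies around germ nuclei. The genes for the intrinsically disordered MEG proteins, which organize them in embryos, were almost off in him-8 males. meg-1 (K02B9.1) had 0, 0, 0.199 and 0.428 CPM in him-8 males, against 154, 162 and 187 CPM in fem-2 oogenic germlines, a ratio of 854 with a counting interval of 292 to 4139. All 4 meg genes are X-linked and lower. The other 8 genes were mixed. glh-2 (-1.26), deps-1 (-0.67) and glh-3 (-0.57) were lower. pgl-1, pgl-2 and pgl-3 were not called, with pgl-3 at 376 ± 72.6 CPM in him-8 males and 476 ± 29.8 CPM in fem-2 oogenic germlines (0.14 ± 0.13), and the helicase genes glh-1 (0.54) and glh-4 (0.48) were called higher but stood at 0.05 and 0.00 scaled to total counts. Of 12 genes 2 were higher and 7 lower (33.8% and 30.4% of all genes were), with a median of -0.62. Without library 2 pgl-3 was also called higher (0.37).

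Genes of the distal stem cell pool were mostly lower. The Notch receptor gene glp-1 had 115, 53.5, 104.2 and 101 CPM in him-8 males, against 491, 523 and 506 CPM in fem-2 oogenic germlines (-1.95 ± 0.20). Its targets sygl-1 and lst-1 parted. sygl-1 had 12.6, 9.19, 17.3 and 16 CPM in him-8 males against 169, 170 and 185 CPM in fem-2 oogenic germlines (-3.15 ± 0.18). lst-1 averaged 151 ± 21.7 CPM in him-8 males and 129 ± 9.87 CPM in fem-2 oogenic germlines, with overlapping libraries, and was called higher (0.72) with TMM but not with total counts (0.23). Of 10 genes 1 was higher and 8 lower (2 and 8 without library 2), beside 33.8% higher and 30.4% lower over all genes.

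Meiotic genes were called in both directions. Of 18 genes for chromosome axes and synapsis, 4 were higher and 7 lower, with a median of -0.22, and of 14 for breaks and crossovers 1 was higher and 6 lower, with a median of -0.41, whereas 33.8% of all genes were higher and 30.4% lower. Without library 2 they were 5 higher and 6 lower (median -0.0029), and 2 higher and 4 lower (median -0.15). The counts depend on the scaling, being 1 higher and 11 lower, and 0 higher and 10 lower, with total counts. The synapsis gene syp-1 had 91.5 ± 17.2 CPM in him-8 males and 64.2 ± 2.36 CPM in fem-2 oogenic germlines and was higher under both scalings (1.00 and 0.51). The cohesin gene rec-8 had 87.3 ± 22.5 CPM in him-8 males and 202 ± 2.79 CPM in fem-2 oogenic germlines (-0.72). The autosomal pairing center genes zim-1, zim-2 and zim-3, relatives of him-8, were lower by about the same amount (-0.82, -0.85 and -0.82).

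The cell cycle list held opposite cyclins. cyb-1, a cyclin B, had 708, 808, 756 and 809 CPM in him-8 males, against 439, 431 and 455 CPM in fem-2 oogenic germlines (1.3 ± 0.13, edgeR adjusted p = 3.02e-05). cyb-3, the cyclin B3 gene, had 50.6, 38.4, 50.3 and 44.3 CPM in him-8 males, against 775, 753 and 866 CPM in fem-2 oogenic germlines (-3.63 ± 0.13), and cyb-2.1 (-2.46), cyb-2.2 (-1.84) and the phosphatase gene cdc-25.2 (-6.09) were also lower. The chromosomal kinase air-2 was higher (0.98, and 0.48 with total counts). In all, 3 of 12 were higher and 8 lower (33.8% and 30.4% of all genes were). The 7 mcm genes, which license replication origins, were all lower, with log2 fold changes from -2.52 to -1.33 and a sum of 624, 407, 701 and 698 CPM in him-8 males against 3667, 3724 and 3653 CPM in fem-2 oogenic germlines.

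Paralogs of basic machinery also parted by sex. The proteasome cap genes rpn-6.1 and rpn-6.2 exchanged places. rpn-6.2 had 218, 270, 249 and 275 CPM in him-8 males against 24.4, 29.5 and 23.4 CPM in fem-2 oogenic germlines (3.79 ± 0.16, edgeR adjusted p = 1.14e-07), whereas rpn-6.1 had 57.6, 44.3, 74.7 and 68.4 CPM in him-8 males against 297, 336 and 305 CPM in fem-2 oogenic germlines (-1.86 ± 0.14). Over the 33 proteasome genes 22 were higher and 2 lower (33.8% and 30.4% of all genes were), with a median of 0.36. But with total counts 4 were higher and 7 lower, with a median of -0.13. Of 77 tested ribosomal protein genes 2 were higher and none was lower, with a median of 0.15. The higher ones numbered 9 without library 2 and 22 by DESeq2. Of the higher ones, rpl-42 had 31.9, 47, 24.8 and 21.6 CPM in him-8 males and 0, 0 and 0.122 CPM in fem-2 oogenic germlines. With total counts 1 ribosomal protein gene was higher and 31 lower, the median being -0.34.

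Histone genes are near-identical copies, so members are uncertain, and of 70 tested 9 were higher and 29 lower (11 and 35 without library 2), beside 33.8% higher and 30.4% lower over all genes. The variant gene his-70 had 124, 173, 151 and 184 CPM in him-8 males and 1 count over all fem-2 oogenic libraries, a ratio of 4905 with a counting interval of 880 to 193737, whereas the related his-72 was lower (-1.04 ± 0.14). The X-linked his-40 had 0 in him-8 males and 48.3, 45.6 and 51.6 CPM in fem-2 oogenic germlines.

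Chromatin genes were mostly lower. Of 14 tested histone methylation genes 1 was higher and 11 lower (2 and 11 without library 2), with a median of -1.14. By DESeq2 1 was higher and 9 lower. Over all genes 33.8% were higher and 30.4% lower by edgeR. The X-linked demethylase gene utx-1 (-4.71), set-25 (-2.14), which encodes an H3K9 methyltransferase, and the PRC2 genes mes-3 (-1.71) and mes-6 (-1.45) were lower. The catalytic PRC2 gene mes-2 was not called, at 99.8 ± 16.52 CPM in him-8 males and 138 ± 5.63 CPM in fem-2 oogenic germlines (0.02 ± 0.13). Of 9 dosage compensation genes, whose complex lowers X transcription in the XX soma, 6 were lower and none was higher. Without library 2, 5 were lower and dpy-26 (0.66) and mix-1 (0.26) were called higher. The lower ones included sdc-1 (-4.37) and sdc-2 (-3.11). Both are X-linked, as utx-1 is, and 69.3% of tested X-linked genes were lower. Also lower was dpy-27, with 0.306, 5.95, 3.18 and 1.07 CPM in him-8 males against 33.7, 39.8 and 46.7 CPM in fem-2 oogenic germlines (-3.57 ± 0.66).

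Markers of somatic tissue moved with library 2. The 10 muscle markers together had 164, 2882, 150 and 125 CPM in him-8 males, against 100, 51.5 and 121 CPM in fem-2 oogenic germlines. Of 9 tested 6 were higher and none was lower (33.8% and 30.4% of all genes were), with a median of 3.43, or 1.12 without library 2. By DESeq2 0 were higher (39.3% of all genes were), and with total counts 3 were (27.7% of all genes). The myosin gene unc-54 had 60.7, 971, 51.7 and 41.3 CPM in him-8 males and 32.9, 16.39 and 33.4 CPM in fem-2 oogenic germlines. Hypodermis markers summed to 57.9, 912, 60.6 and 32.3 CPM in him-8 males, against 57.7, 23.8 and 65.9 CPM in fem-2 oogenic germlines, with none of 3 called. Library 2 was also the him-8 library highest in X-linked counts, in MSP genes and in small sperm proteins, and the part of somatic RNA in these was not tested.

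The summed intestine markers went the other way, at 18.4, 415, 35.8 and 46.4 CPM in him-8 males against 1425, 422 and 1096 CPM in fem-2 oogenic germlines. The yolk protein genes vit-2, vit-5 and vit-6, which the hermaphrodite intestine expresses, were all lower (-5.77, -6.40 and -6.46), at means of 4.36 ± 3.66, 2.03 ± 1.42 and 3.17 ± 2.33 CPM in him-8 males against 307 ± 159, 254 ± 142 and 393 ± 200 CPM in fem-2 oogenic germlines. Of 5 tested intestine markers no others were called, and they did not all fall, the highest value being 3.88. In N2, 2 of 5 tested were higher and 3 lower (38.3% and 22% of all genes were). Neuron markers summed to 30.2 to 67 CPM in him-8 males and 84.3 to 103 CPM in fem-2 oogenic germlines, with none of 3 called (1 lower without library 2 or with total counts). Of 7 somatic gonad markers 2 passed the filter, the innexin genes inx-8 (1.39 ± 0.18) and inx-9 (2.2 ± 0.23). Both were higher, as were 33.8% of all genes. Which cells these transcripts came from was not tested. The endoplasmic reticulum chaperone gene hsp-4 averaged 1433 ± 140 CPM in him-8 males and 611 ± 34.7 CPM in fem-2 oogenic germlines (1.72 ± 0.12). Of the 4 heat shock genes tested, hsp-4 and hsp-70 were higher and none was lower (33.8% and 30.4% of all genes were). With total counts hsp-1 (-0.51) and hsp-90 (-0.58), the most abundant of the list, were lower.

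**Figure D4:**
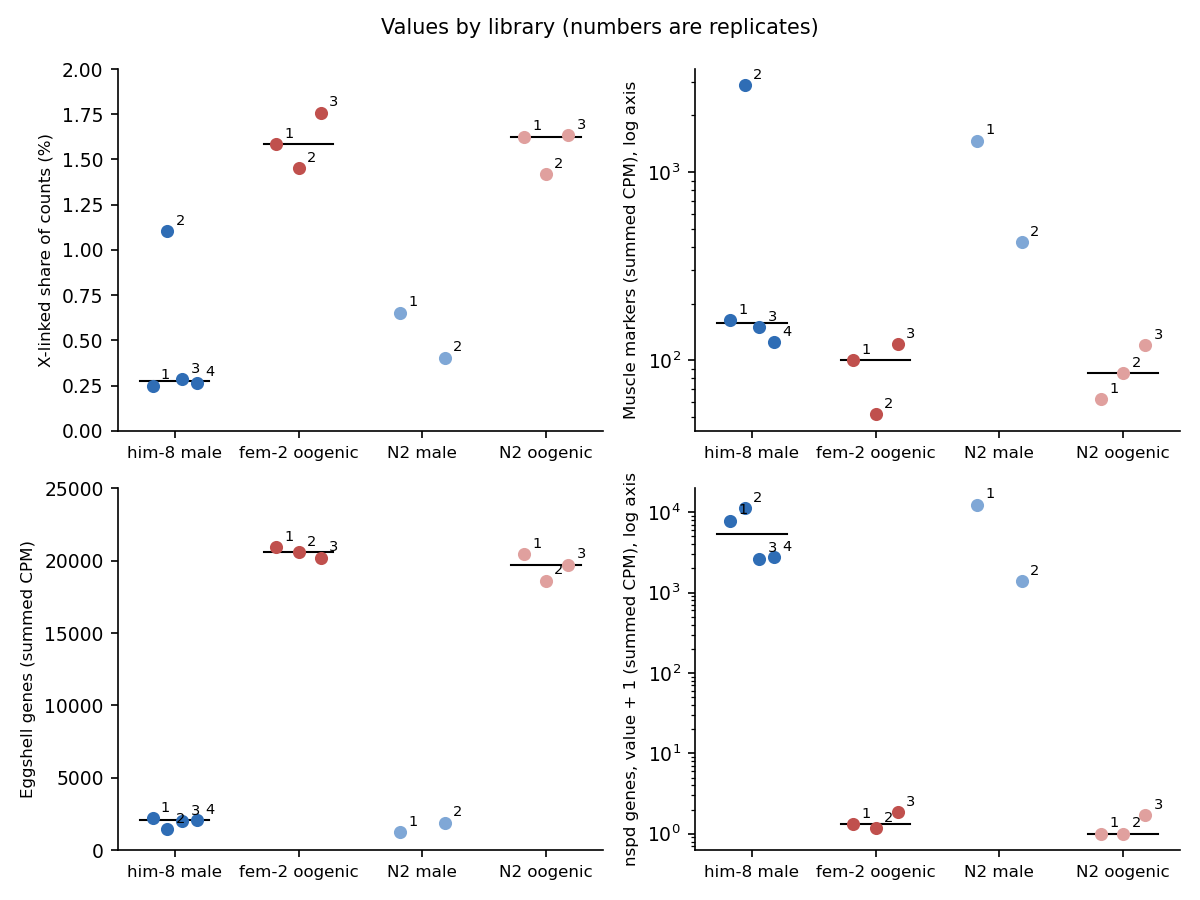
X-linked percentage of gene counts, and summed CPM of muscle markers (log axis), eggshell genes and nspd genes (value + 1, log axis), in each library of the him-8 male, fem-2 oogenic, N2 male and N2 oogenic groups, with replicate numbers beside the points and lines at the medians of groups of 3 or more. Library 2 of the him-8 males stands apart at 1.10% X-linked counts and 2882 CPM of muscle markers, and the nspd sums of him-8 males fall into pairs at 7867 and 11344 CPM and at 2645 and 2752 CPM.

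The same sex comparison in N2, which shares no library with the mutants, called 3287 genes higher (38.3%) and 1886 lower (22%) of 8574. Over the 8515 genes tested in both, log2 fold changes correlated at Pearson r = 0.983 and Spearman rho = 0.967, a description across genes that are not independent replicates. Of the 2851 higher in mutants 2724 (95.5%) were higher in N2, which is 84.0% of the 3242 higher in N2. Of the 2663 lower in mutants 1833 (68.8%) were lower in N2, which is 97.3% of the 1884 lower in N2. Of the 827 mutant decreases without a call in N2, 771 (93.2%) had the same sign there. Called in opposite directions were 3 genes, C27D8.3, egl-4 and zig-11. On CPM, both N2 males were below every N2 oogenic library for egl-4 (229 and 233 against 263 to 342 CPM). They were so for zig-11 too (56.3 and 64 against 64.9 to 90.2 CPM). The positive N2 values of egl-4 and zig-11 (0.56 and 0.52) thus rest on the TMM scaling. C27D8.3 had 176, 183 and 10.5 CPM in fem-2 oogenic germlines.

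The sex difference in the mutants was then tested against that in N2 over the 12 libraries. Of 9916 genes, 0 had a higher and 1 (0.0101%) a lower log2 difference past the threshold by edgeR, with 287 (2.89%) at an unadjusted p under 0.05. By DESeq2 5 were higher and 7 lower. Without library 2, 4 were higher (0.0406%) and 34 lower (0.345%). The X chromosome carried 21 of the 34, and 7.97% of the genes tested. The 3 him-8 male libraries that remain had 164, 150 and 125 CPM of muscle markers, against 1469 and 425 CPM in the N2 male libraries, and the part of somatic RNA in these 21 genes was not tested.

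The single gene past the threshold was tsn-1 (F10G7.2, WBGene00006626, chromosome II), which encodes a Tudor domain nuclease found in the RNA-induced silencing complex. It had 99.6, 47.6, 91.8 and 120 CPM in him-8 males, against 1322, 1308 and 1308 CPM in fem-2 oogenic germlines (-3.39 ± 0.24, edgeR adjusted p = 2.99e-06). In N2 it had 551 and 818 CPM in males, against 1192, 1278 and 1462 CPM in oogenic germlines (-0.02, edgeR adjusted p = 0.92). On CPM both N2 males thus lay below every N2 oogenic library, and the N2 value near 0 rests on the TMM scaling. The fem-2 and N2 oogenic levels overlapped, so the 2 comparisons parted on the male side, and the difference between them was -3.10 ± 0.36 (edgeR adjusted p = 0.0134). The call was lost when N2 male 2, N2 oogenic 1 or N2 oogenic 2 was left out (adjusted p = 0.115, 0.122 and 0.0891), while the value stayed between -3.27 and -2.87.

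Over all 25 libraries, the 7 from him-8 males, mature sperm included, had 25.4 to 120 CPM of tsn-1, and the other 18 had 551 to 1462 CPM. Those others included 3 mes-3 male germline libraries at 1039 to 1128 CPM and 3 mes-3 sperm libraries at 649 to 836 CPM. This comparison was added after the values were seen. Of the 45461 listed genes, tsn-1 was the only 1 with all 7 him-8 libraries more than 2-fold below every other library, and 0 genes had them all more than 2-fold above. The neighbouring genes did not share the pattern. F10G7.9 had 142, 81.1, 107 and 123 CPM in him-8 males and 102 and 111 CPM in N2 males, and tag-151 (F10G7.1) had 153, 109, 142 and 142 CPM in him-8 males and 103 and 152 CPM in N2 males.

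**Figure D5:**
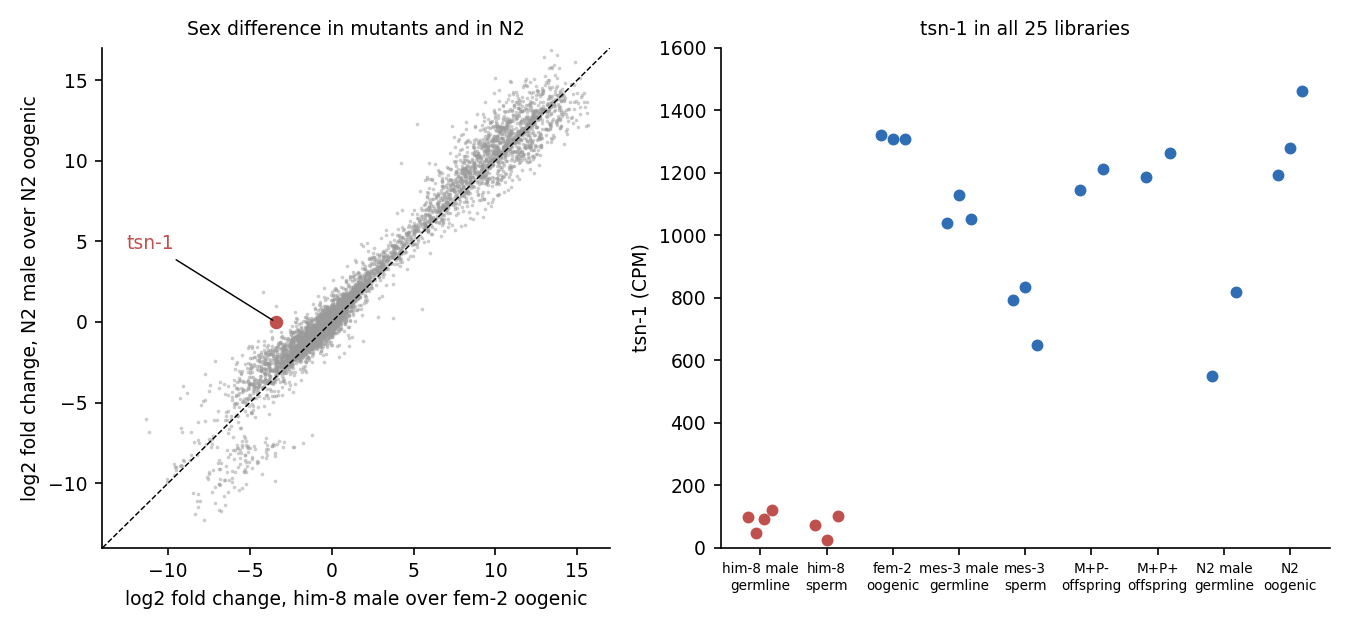
Log2 fold change of each gene in the mutants (him-8 male over fem-2 oogenic) and in N2 (male over oogenic), and the CPM of tsn-1 in every library of the study by group. Most genes lie along the diagonal (Pearson r = 0.983 across 8515 genes), and tsn-1 is at 25.4 to 120 CPM in the 7 him-8 libraries and at 551 to 1462 CPM in the other 18.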

How the data were processed

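Per the paper's methods and the labels, the authors aligned 50-base single-end reads with TopHat2 to the WS220 transcriptome, and the deposited counts are HTSeq read counts per gene, unnormalized. The strand setting and tool versions are not given in the sources used here. The deposited RPKM table holds the authors' value per gene and group, and was used only to recover the lengths of 18044 genes, from which RPKM per library was computed. Tables of the authors' own comparisons (fold changes and p-values) were not used.

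Of 45461 gene identifiers, 44933 matched 1 gene of the annotation, and unmatched identifiers held 0.624% of counts. HTSeq's summary lines were kept out of totals. Reads outside genes came to 4.79 to 12.3% in him-8 male and 10.6 to 12.2% in fem-2 oogenic libraries. A floor of 3 counts averaged 0.945 CPM in him-8 male and 0.351 CPM in fem-2 oogenic libraries. Intervals and floors cover counting error only.

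Groups were compared with edgeR 4.0.16 in R 4.3.3 (TMM, filterByExpr, quasi-likelihood F test), with no block, and SE as the log2 fold change over the root of F. DESeq2 1.42.0, other scalings, filters and libraries left out were the alternatives. Replicate pairs differed by more than sampling noise (chi-square per degree of freedom 4.77 to 45.1). On simulated counts of these libraries, the main comparison recovered 35% of 2-fold and 99% of 4-fold changes, and the difference from N2 2% and 57%. The simulation gave every gene the same spread, changed few genes and set no library apart. It therefore does not give the recovery in the real counts. Named genes were protein-coding, called, without overlap of libraries and outside the 9 families. They were, per direction, the 6 with the largest change at 20 CPM or more, the 5 highest with a log2 fold change of at least 1 in size, the 3 X-linked with the largest change at 10 CPM or more, and up to 5 that differed from N2, plus members of the 19 lists (248 of 250 genes matched) and families. The comparison, lists and members were chosen with earlier results of these data known.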

Additional observations from a re-analysis of the deposited data

Results flagged for a closer look

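Among 56 values examined over the 4 him-8 male libraries, 12 had a library whose gap to the nearest other exceeded Dixon's 95% critical share of the whole range, against about 1 in 20 by chance, and 10 of the 12 were set apart by library 2. It was high in the X-linked share of counts (1.10%), in the summed CPM of muscle (2882), intestine (415) and hypodermis (912) markers and of small sperm protein genes (13929), in H12D21.1 (1413 CPM) and in asns-2 (51.9 CPM). It was low in the summed CPM of genes for chromosome axis and synapsis (1177), of genes for meiotic breaks and crossovers (534), and in cpg-1 (249.8 CPM). The values are not independent, since most come from the same library. The other 2 were nsph-3.2, lowest in him-8 male 1 at 3209 CPM, and C17E7.4, whose single count, in him-8 male 3, gave 0.199 CPM.

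The sex difference of tsn-1 was -3.10 on the log2 scale in the mutants relative to that in N2, the single gene of 9916 past the threshold in the test of the difference itself (edgeR adjusted p = 0.0134). All 4 him-8 male libraries were below both N2 male libraries.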

How the results depend on the processing

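The 26 genes named by the rule in the main comparison kept their direction and their call in 459 of 468 alternative values. The other 9 gave no call, 7 for F18E9.7, which failed the filter, and 2 for asns-2, which failed it at 10 counts and had no adjusted p by DESeq2. Of 112 list medians 2 changed sign, and 31 of 224 list counts moved by over 1.5 times or to or from 0. Total counts without a TMM factor gave 4272 lower genes in the mutants and 4242 in N2, and turned the ribosomal protein and proteasome medians negative. Leaving out 1 library gave 2893 to 3631 higher and 2377 to 2856 lower genes in the mutants, 2757 to 3387 and 1539 to 1848 in N2, and 0 to 4 higher and 0 to 34 lower for the difference from N2. That difference also numbered 5 higher and 7 lower by DESeq2 and 2 and 16 without a filter on low counts. Without fem-2 oogenic 3 it numbered 1 and 4, and without N2 oogenic 3 1 and 1. With total counts, RLE factors or autosomal TMM factors it stayed at 0 higher and 1 lower.

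The replicate numbers were not treated as pairs. Deviations of same-numbered libraries correlated at -0.065, -0.328 and -0.188. Deviations from a group's mean offset each other within the group, so these values cannot settle whether samples were paired. With the replicate block on numbers 1 to 3, 2663 genes were higher and 2231 lower, against 2999 and 2622 without it, a fit added after the data were seen. With the block the difference from N2 had 0 lower genes, and tsn-1 was at -3.39 (edgeR adjusted p = 0.0619). The 1849544 counts of library 2 set the widest floor among the him-8 males, so low levels there are the least certain.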

Other observations

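Genes described here were chosen after their values were seen. The neighbouring genes C27D8.1, C27D8.2 and C27D8.3 (chromosome IV) were set apart in fem-2 oogenic 1 and 2, whose library names carry the same tag, of a meaning not given in the sources used here. In him-8 males C27D8.1 and C27D8.2 had 395 to 527 and 398 to 440 CPM, whereas C27D8.3 had 4.06 to 5.17 CPM. C27D8.3 had 176, 183 and 10.5 CPM in fem-2 oogenic germlines, against 3.71, 2.53 and 4.73 CPM in N2 oogenic germlines. C27D8.2 had 24.3, 27 and 0.305 CPM in fem-2 oogenic germlines, against 0, 0.843 and 0.161 CPM in N2 oogenic germlines. C27D8.1 had 5.69, 7.75 and 0.183 CPM in fem-2 oogenic germlines, against 0, 0 and 0.215 CPM in N2 oogenic germlines.

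The glucuronosyltransferase family gene ugt-64 (C07G3.9, chromosome V) had 48.7 to 69.3 CPM in him-8 males and 5.59 to 6.41 CPM in fem-2 oogenic germlines, against 31.1 and 41.8 CPM in N2 males and 77.9, 81.8 and 18.9 CPM in N2 oogenic germlines. Its difference from N2 was 3.65 (edgeR adjusted p = 0.118). It passed by DESeq2 (adjusted p = 2.74e-05), without him-8 male library 2 (edgeR adjusted p = 0.0378) and without N2 oogenic 3 (edgeR adjusted p = 7.71e-05). The cation channel gene gon-2 (T01H8.5, chromosome I), needed for division of gonad precursors, had 6.43 to 15.4 CPM in him-8 males and 177 to 202 CPM in fem-2 oogenic germlines, against 14.2 and 11.9 CPM in N2 males and 44.5 to 59.8 CPM in N2 oogenic germlines (difference from N2 -2.30, edgeR adjusted p = 0.332). It passed by DESeq2 (adjusted p = 0.000845) and without library 2 (edgeR adjusted p = 0.0265). The kinase gene egl-4 (F55A8.2, chromosome IV), a cGMP-dependent protein kinase, had 93.3 to 114 CPM in him-8 males and 285 to 317 CPM in fem-2 oogenic germlines, against 229 and 233 CPM in N2 males and 263 to 342 CPM in N2 oogenic germlines (difference -1.31, edgeR adjusted p = 0.118). It passed by DESeq2 (adjusted p = 1.88e-05) and without library 2 (edgeR adjusted p = 0.0216).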
